A study of Mus musculus with 6 samples.

Results

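The genes described here are 10 genes of matrix metalloproteinases, of their tissue inhibitors and of related cell-surface proteases in peritoneal macrophages (PEMs). They were taken by symbol as 6 genes of matrix metalloproteinases (*Mmp8*, *Mmp9*, *Mmp12*, *Mmp13*, *Mmp14* and *Mmp19*), 2 genes of tissue inhibitors (*Timp1* and *Timp2*) and 2 genes of the ADAM family (*Adam8* and *Adam17*), and all 10 were found among the 15415 genes with values. RNA was sequenced in 6 libraries, 3 of LysM-Cre; Tim-4 fl/fl genotype (knockout libraries 1 to 3) and 3 of Tim-4 fl/fl genotype (control libraries 1 to 3), so that both groups carry the floxed *Tim-4* gene. In the knockout mice, Cre is expressed from the *Lyz2* locus and removes the floxed gene in myeloid cells, which besides macrophages include granulocytes, and the controls were littermates that are not said to carry Cre. Per the study's methods, male C57BL/6J mice 6 to 8 weeks old were used, and PEMs were harvested 3 days after an intraperitoneal injection of starch. All 6 libraries carry LPS as their treatment label, and the methods describe activation with 1 μg/ml LPS for 3.5 hours without tying it to the sequenced cells. The libraries were grouped by their titles, since the labels list each genotype under the opposite group. No source says whether the libraries of a group came from separate mice, so the p-values measure the spread between these libraries, which may be technical.

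Matrix metalloproteinases are zinc-dependent proteases that cut collagens, elastin and basement membrane proteins, and are made as inactive proenzymes whose prodomain has to be removed. Tissue inhibitors of metalloproteinases bind the active site of the mature enzymes and block it. ADAM proteases stand in the cell membrane and release the outer parts of cytokines, growth factors and receptors, and ADAM17 is known for releasing TNF from macrophages. Macrophages use these enzymes to move through tissue, to remodel matrix and to shed inflammatory mediators after contact with LPS.

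Expression was deposited as FPKM, which is reads per gene scaled by gene length and library depth, and between 36170767 and 42217558 reads per library were recovered from these values. *Timd4*, the gene of Tim-4, was at 0.246 to 0.394 FPKM in the knockout group against 1.19 to 19.5 FPKM in the controls, with control library 3 the lowest of the controls (log2 fold change -2.66, limma adjusted p = 0.0715). It passed in limma when the replicate number entered as a block (adjusted p = 0.0436), with a pseudocount of 0.1 (0.0458) and when control library 3 was left out (0.00041), and in no other alternative, with 0.123 without a filter and 0.143 with voom on the recovered reads. It passed the filter through the controls alone. All 6 macrophage markers listed (*Adgre1*, *Itgam*, *Cd68*, *Csf1r*, *Mertk* and *Cd14*) were tested and 0 passed in limma, beside 7.31% of all tested genes. At an unadjusted p below 0.05 were 3 of the 6 markers, beside 27.6% of all tested genes. Of these, *Cd68* had a positive and *Csf1r* and *Cd14* a negative fold change. The FPKM of the 6 markers summed to between 2188 and 2840 in every library. Markers of B cells, mast cells and large peritoneal macrophages had lower summed FPKM in the knockout libraries. Without a filter on low values 2 of 6, 4 of 6 and 2 of 6 passed as lower in limma. In that fit 446 of all 15415 genes passed in either direction. Most of those above the filter passed it through the controls alone. The sums were 2.79 to 5.52 against 27.6 to 115.5 for B cells, 1.89 to 2.27 against 38.2 to 49.3 for mast cells, and 3.98 to 6.80 against 34.9 to 135.5 for large peritoneal macrophages. In such bulk libraries, fewer cells of a type and less RNA per cell cannot be told apart.

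Of the 10 genes, *Mmp19* alone passed the threshold between the groups and was higher in the knockout libraries, while 9 did not pass. The test was limma on log2(FPKM + 1) with Benjamini-Hochberg adjustment over the 9030 genes with a mean of at least 1 FPKM in either group, a filter that all 10 genes passed, and the threshold was an adjusted p of 0.05. Over all tested genes 7.31% passed in either direction and 2.57% passed as higher in the knockout libraries, so 1 of 10 is near the background, and 4.74% passed as lower, against 0 of the 10. At an unadjusted p below 0.05, 2 of the 10 genes (*Mmp19* and *Adam8*) were counted, beside 27.6% of all tested genes. The fold change was positive in 7 of the 10 genes and negative in 3, with a median log2 fold change of 0.16, while the median of all tested genes was -0.11. Rescaling the libraries by the median of ratios moved the latter to 0.01 and turned the calls to 3.8% higher and 3.61% lower, with *Mmp19* and *Adam8* higher among the 10 genes. The groups did not overlap in 2 of the 10 genes, *Mmp19* with every knockout library above every control library and *Mmp9* with every knockout library below, beside 34.1% of all tested genes (11.1% with the knockout libraries above and 23.0% below).

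**Figure D1:**
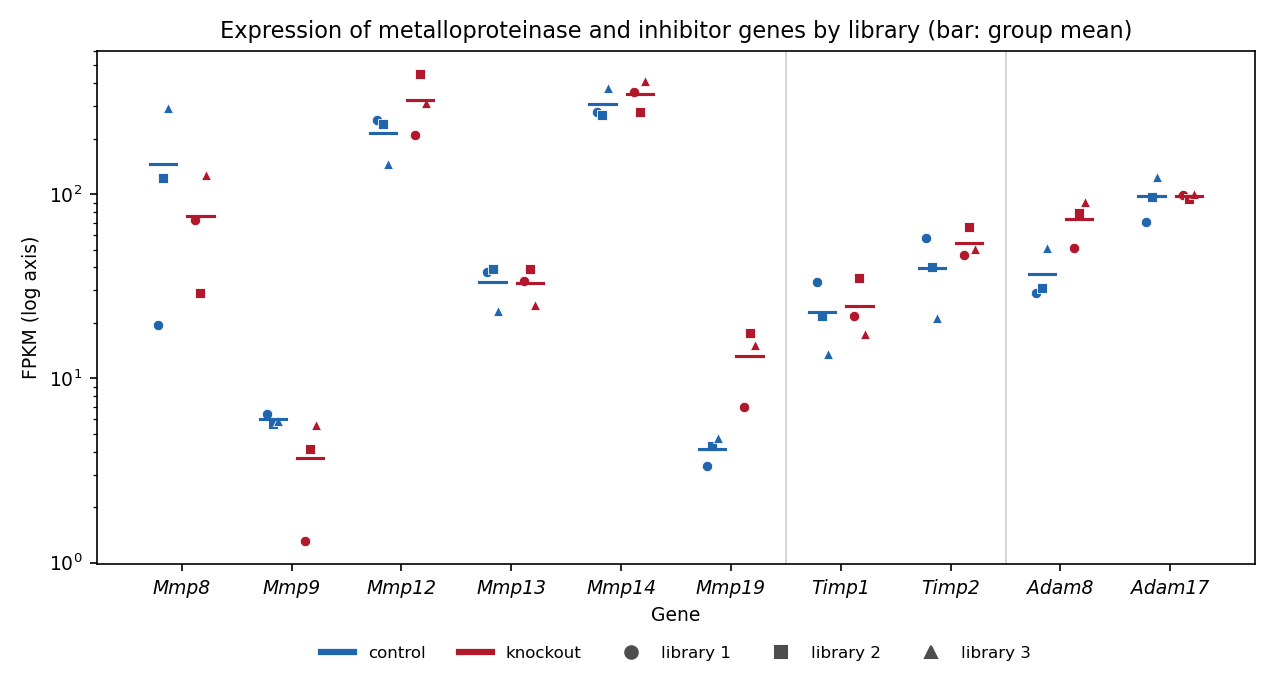
FPKM (log axis) of the 10 genes in each library, with controls in blue, knockout libraries in red, 1 symbol per library number and a bar for the group mean. *Mmp14* and *Mmp12* are the highest by mean, *Mmp9* the lowest, and *Mmp8* has the widest spread within a group, from 19.5 to 293.9 FPKM in the controls.

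**Figure D2:**
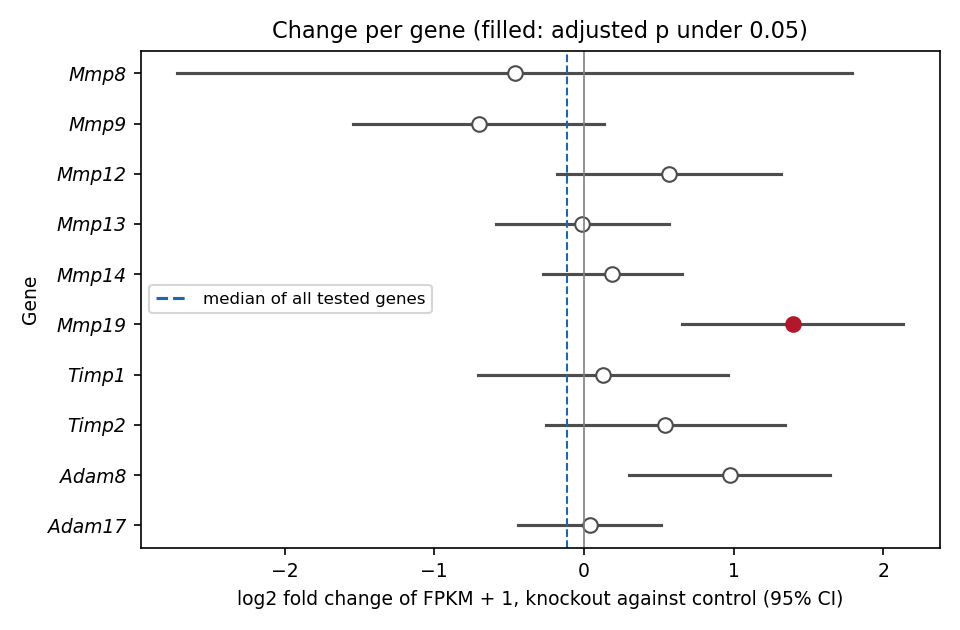
Log2 fold change of FPKM + 1 in the knockout against the control libraries for each gene, with the 95% confidence interval from limma (3 libraries per group), and the median of all tested genes (-0.11) as a dashed line. The filled point, *Mmp19*, passed the adjusted threshold, and the interval of *Adam8*, from 0.30 to 1.64, also lay above 0.

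*Mmp19* encodes a secreted metalloproteinase that cuts components of basement membranes (Entrez 58223). It was at 6.96, 17.7 and 15.2 FPKM in the knockout group (libraries 1, 2 and 3 in that order, here and throughout) against 3.36, 4.29 and 4.74 FPKM in the controls. Knockout library 1 was the lowest of the knockout libraries and still above every control library, so the groups did not overlap. The group means were 13.3 ± 5.61 and 4.13 ± 0.703 FPKM (SD, n = 3 each), a ratio of 3.21, and the log2 fold change of FPKM + 1 was 1.39 (standard error, SE, 0.32, limma adjusted p = 0.0438). The values rest on 1011 to 2581 reads per knockout library and 459 to 593 reads per control library. The call was lost without a filter on low values (limma adjusted p = 0.0787), and without control library 2, knockout library 2, knockout library 3 or control library 1 (limma adjusted p = 0.155, 0.164, 0.101 and 0.0685), while the log2 fold change stayed between 1.15 and 1.77 with any 1 library left out. Without control library 3, the control with the least *Timd4*, it was 1.48 and passed (limma adjusted p = 0.0374).
Exons of *Mmp19* overlap exons of *Tmem198b* and *Gm47093* on the other strand in the GENCODE M21 annotation, and whether reads were counted by strand is not given in the sources used here. *Tmem198b* was at 0.219 to 0.533 FPKM in the 6 libraries, on 37 to 89 reads. The genes whose profile over the 6 libraries lay nearest to that of *Mmp19*, by the root-mean-square difference of centred log2(FPKM + 1), were *Col1a1*, *Bgn* and *Ctsl*, with differences of 0.24, 0.25 and 0.25 against a root-mean-square size of 0.80 for the *Mmp19* profile itself. *Col1a1*, a chain of type I collagen, was at 0.923, 4.31 and 2.32 FPKM in the knockout group against 0.0513, 0.403 and 1.01 FPKM in the controls, and like *Mmp19* it was highest in knockout library 2 and lowest in control library 1. It belongs to the 11 mesothelial and fibroblast markers, whose FPKM summed to 14.9 to 28.0 in the knockout libraries and 4.79 to 25.3 in the controls. Of these markers 5 were tested and 0 passed the adjusted threshold in limma, beside 7.31% of all tested genes. At an unadjusted p below 0.05 were 2, *Pdgfra* and *Col1a1*, beside 27.6%. The same 2 passed in the blocked fit, beside 9.47%, and *Col1a1* passed the filter through the knockout libraries alone. The part of these markers in the *Mmp19* difference was not tested. *Ctsl*, the gene of the lysosomal protease cathepsin L, was at 994, 1378 and 1509 FPKM against 466, 523 and 461 FPKM (log2 fold change 1.40, limma adjusted p = 0.0113).

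*Adam8* encodes a membrane-bound disintegrin and metalloproteinase of leukocytes (Entrez 11501), and its exons overlap those of *Gm16201* on the other strand. It was at 50.7, 78.5 and 91.0 FPKM in the knockout group against 28.9, 31.0 and 51.3 FPKM in the controls. Knockout library 1 lay just below control library 3, and this was the single overlap between the groups. The means were 73.4 ± 20.6 against 37.1 ± 12.3 FPKM (SD, n = 3 each), a ratio of 1.98, and the log2 fold change of 0.97 (SE 0.29, 95% confidence interval from 0.30 to 1.64) did not pass the threshold (limma adjusted p = 0.0823). It passed in limma when the replicate number entered as a block (adjusted p = 0.0257), after rescaling by the median of ratios to a log2 fold change of 1.12 (adjusted p = 0.0413), and at 1.22 when control library 3 was left out (adjusted p = 0.0219). With these settings 2 of the 10 genes, *Mmp19* and *Adam8*, were past the threshold, where 9.47%, 7.41% and 14.2% of all tested genes were.

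**Figure D3:**
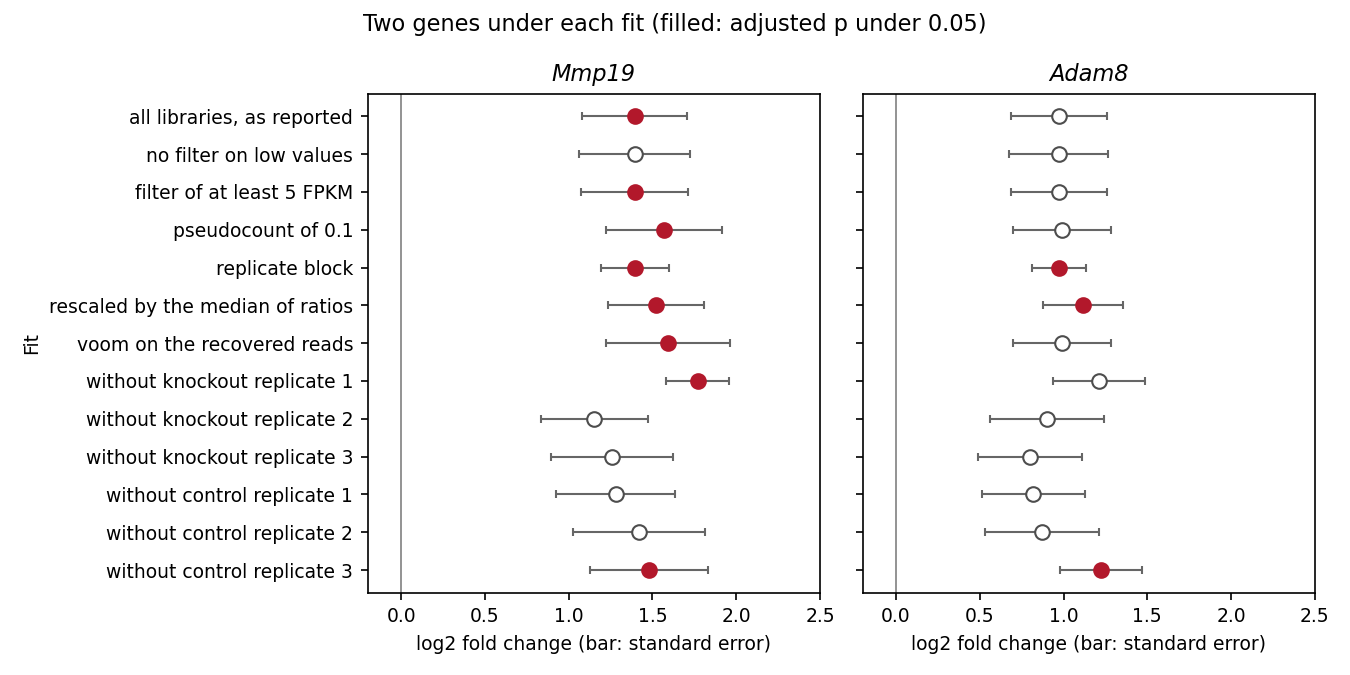
Log2 fold change of *Mmp19* (left) and *Adam8* (right) with its standard error from limma under the reported fit and 12 alternatives, filled where the adjusted p was below 0.05. Both genes lie above 0 in every fit, *Mmp19* is filled in the reported fit and 7 of 12 alternatives, and *Adam8* in 3 of 12.

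The most abundant of the 10 genes by mean FPKM was *Mmp14* (Entrez 17387), the gene of a membrane-anchored metalloproteinase that cuts collagen at the cell surface and activates pro-MMP2. It was at 358, 281 and 411 FPKM in the knockout group against 278, 268 and 375 FPKM in the controls, so the ranges overlapped, with the knockout library the higher one in each of the 3 pairs of the same number. The change of 0.19 on the log2 scale lay in a 95% confidence interval of -0.27 to 0.65 (limma adjusted p = 0.565), and ran from 0.06 (without knockout library 3) to 0.34 (without knockout library 2 or control library 3) with a library left out. *Mmp12* (Entrez 17381), the gene of macrophage elastase, came next and was at 209, 448 and 311 FPKM against 253, 241 and 146 FPKM. Knockout library 2 held the highest value and control library 3 the lowest, and knockout library 1 lay below control libraries 1 and 2. The log2 fold change of 0.57 had an interval from -0.18 to 1.32 and did not pass (limma adjusted p = 0.289), and it was 0.30 without knockout library 2 and 0.32 without control library 3. Exons of *Mmp12* overlap those of *Mmp1b* on the other strand, which was at no more than 0.193 FPKM in any library. *Mmp14* and *Mmp12* together made up 80.6% to 89.0% of the summed FPKM of the 6 metalloproteinase genes in the knockout libraries and 61.4% to 88.8% in the controls.

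*Mmp12*, *Mmp13* and *Mmp8* stand in 1 run of neighbouring metalloproteinase genes on chromosome 9, in the order *Mmp13*, *Mmp12*, *Mmp1b*, *Mmp3*, *Mmp1a*, *Mmp10*, *Mmp8*, *Mmp27*, *Mmp20* and *Mmp7* in RefSeq (GRCm38.p6). *Mmp1a*, *Mmp20* and *Mmp7* were not analysed here. The other genes of the run differed widely in level, with *Mmp1b*, *Mmp3* and *Mmp10* below 1 FPKM in every library and *Mmp27* at 1.91 to 4.19 FPKM. The 250 bases before the annotated start of these 3 genes are shown because promoters of metalloproteinase genes are known for binding sites of AP-1, a factor that LPS activates. The capitals mark the AP-1 motif TGANTCA, which reads alike on both strands. The sequences are from RefSeq (GRCm38.p6, plus strand), with *Mmp13* from chr9:7272264-7272513, *Mmp12* before the second of its 2 listed starts from chr9:7347124-7347373 and *Mmp8* from chr9:7558179-7558428.
Mmp13: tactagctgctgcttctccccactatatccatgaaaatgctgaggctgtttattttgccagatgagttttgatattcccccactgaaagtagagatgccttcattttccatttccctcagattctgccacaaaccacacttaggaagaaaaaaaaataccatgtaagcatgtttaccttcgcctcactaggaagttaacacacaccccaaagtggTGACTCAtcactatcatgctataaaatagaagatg
Mmp12: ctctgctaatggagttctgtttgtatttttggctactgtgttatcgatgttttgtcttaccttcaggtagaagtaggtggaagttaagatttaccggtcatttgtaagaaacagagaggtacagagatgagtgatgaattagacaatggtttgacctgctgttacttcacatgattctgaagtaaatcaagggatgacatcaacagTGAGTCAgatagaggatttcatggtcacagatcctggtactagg
Mmp8: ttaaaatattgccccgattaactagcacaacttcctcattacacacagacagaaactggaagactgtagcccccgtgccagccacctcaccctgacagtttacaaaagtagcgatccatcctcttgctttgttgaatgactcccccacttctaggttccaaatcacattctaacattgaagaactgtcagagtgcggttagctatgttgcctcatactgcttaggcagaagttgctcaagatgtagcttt
The motif lay 35 to 29 bases before the start of *Mmp13* and 44 to 38 bases before this start of *Mmp12*, and it was not found before the first start of *Mmp12* or in the windows of *Mmp8*, *Mmp14*, *Timp1*, *Timp2*, *Adam8* or *Adam17*. These were the 8 genes with a listed promoter, 9 windows in all, and 6.75% of 32851 windows of the same length held the motif. The NF-κB consensus, searched on both strands, was in none of the 9 windows and in 3.9% of all windows.

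*Mmp13* (Entrez 17386) and *Mmp8* (Entrez 17394) encode collagenases that cut fibrillar collagen, and MMP8 is best known from neutrophils. *Mmp13* was at 33.9, 39.3 and 25.1 FPKM in the knockout group against 37.7, 39.1 and 23.2 FPKM in the controls. The values matched closely between the groups, with the third library lowest in each, and the log2 fold change was -0.01 with an interval from -0.59 to 0.57 (limma adjusted p = 0.982). *Mmp8* was at 71.9, 29.2 and 127.5 FPKM in the knockout group against 19.5, 121.8 and 293.9 FPKM in the controls. The highest control value was 15.1 times the lowest, and the knockout values all lay inside the control range. Its within-group standard deviation of 1.57 on the log2 scale was higher than that of 99.9% of the tested genes, and the log2 fold change of -0.46 had an interval from -2.72 to 1.79 (limma adjusted p = 0.78). Its sign turned without knockout library 2 or control library 3.
Of 10 listed neutrophil markers, *Ly6g*, *Elane* and *Mpo* were not analysed here, and the FPKM of the other 7 summed to 79.0 to 103.9 in the knockout libraries and 182.8 to 209.9 in the controls. Of these markers 4 were tested, and 2, *S100a8* and *Camp*, were past the threshold as lower in the knockout libraries, beside 4.74% of all tested genes, *Camp* having passed the filter through the controls alone. In the blocked fit 1 of them, *S100a8*, passed. Without knockout library 1 or control library 2, 0 passed in limma, in fits where 30 and 8 of all 9030 genes passed. The part of these markers in the *Mmp8* values was not tested.

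*Mmp9* (Entrez 17395), the gene of gelatinase B, which cuts denatured collagen and type IV collagen, had the lowest mean of the 10. It was at 1.32, 4.16 and 5.59 FPKM in the knockout group against 6.38, 5.66 and 5.90 FPKM in the controls. The controls lay close together, and knockout library 3 came close to the lowest control, while knockout library 1, with 211 reads, stood far below the rest. The groups did not overlap, with the knockout libraries lower, as in 23.0% of all tested genes. The log2 fold change was -0.70 (SE 0.36, interval from -1.54 to 0.14, limma adjusted p = 0.246), and without knockout library 1 it was -0.26.

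Neither of the inhibitor genes passed the test. *Timp1* (Entrez 21857), the gene of an inducible inhibitor of most secreted metalloproteinases, was at 21.7, 34.9 and 17.4 FPKM in the knockout group against 33.4, 21.9 and 13.6 FPKM in the controls, and the ranges overlapped almost fully. Its log2 fold change of 0.13 had an interval from -0.71 to 0.96 (limma adjusted p = 0.844), and its sign turned without knockout library 2 or control library 3. *Timp2* (Entrez 21858), the gene of an inhibitor that also takes part in the activation of pro-MMP2 by MMP14, was at 46.8, 66.5 and 50.2 FPKM against 57.6, 40.0 and 21.2 FPKM. Control library 3 was the lowest and knockout library 2 the highest. The log2 fold change of 0.54 had an interval from -0.26 to 1.34 (limma adjusted p = 0.337), and it was 0.16 without control library 3 and 0.86 without control library 1.
*Timp2* was above *Timp1* in every library, by 1.91 to 2.89 times in the knockout libraries and 1.56 to 1.83 times in the controls. The summed FPKM of the 6 metalloproteinase genes was 681, 819 and 896 in the knockout libraries and 597, 680 and 849 in the controls. The summed FPKM of the inhibitor pair was 68.5, 101.4 and 67.5 against 90.9, 61.9 and 34.9. The ratio of these sums ran from 8.08 to 13.3 in the knockout libraries and from 6.57 to 24.3 in the controls, and control library 3, with the highest *Mmp8* and the lowest *Timp1* and *Timp2* of the 6 libraries, held the highest ratio.

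*Adam17* (Entrez 11491) was nearly even across the knockout libraries, at 98.4, 93.7 and 99.9 FPKM, and wider in the controls, at 71.0, 96.9 and 123.7 FPKM. All knockout values lay inside the control range. The log2 fold change was 0.04 with an interval from -0.44 to 0.51 (limma adjusted p = 0.92), and its sign turned without control library 1. Exons of *Adam17* overlap those of *Iah1* on the other strand, which was at 17.6 to 27.3 FPKM.
Among 9 genes that help ADAM17 or ADAM10 to mature or to reach the cell surface, 6 were tested and 0 passed the threshold in limma, with 2 (*Rhbdf2* and *Furin*) at an unadjusted p below 0.05, beside 7.31% and 27.6% of all tested genes. *Furin*, the gene of the convertase that removes the prodomains of ADAM17 and MMP14, was at 138, 143 and 85.3 FPKM in the knockout group against 84.4, 57.6 and 50.9 FPKM in the controls. Its log2 fold change of 0.91 (SE 0.26, limma adjusted p = 0.0781) passed in the blocked fit (limma adjusted p = 0.0332), as well as without knockout library 3 or control library 1. *Rhbdf2*, the gene of iRhom2, which carries ADAM17 to the cell surface in immune cells, was at 100.4, 87.0 and 81.6 FPKM against 67.7, 51.5 and 66.3 FPKM. The groups did not overlap for either gene, as in 11.1% of all tested genes in this direction, and the log2 fold change of *Rhbdf2* was 0.53 (SE 0.16, limma adjusted p = 0.0813).

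Of 15 genes whose proteins ADAM17 is known to shed, 12 were tested, 2 rose and 2 fell, beside 2.57% higher and 4.74% lower over all tested genes. Without knockout library 1 or control library 2, 0 of the 12 passed in limma, and without knockout library 2 *Trem2* alone did, in fits where 30, 8 and 63 of all 9030 genes passed. *Trem2*, the gene of a lipid-sensing receptor of macrophages, was at 190.3, 234.8 and 161.8 FPKM in the knockout group against 68.2, 63.2 and 76.0 FPKM in the controls (log2 fold change 1.47, SE 0.17, limma adjusted p = 0.00913). *Hbegf*, *Areg* and *Ereg* all encode ligands of the epidermal growth factor receptor, and they passed the test in opposite directions. *Hbegf* was at 6.62, 9.53 and 3.29 FPKM against 1.93, 1.59 and 1.25 FPKM (log2 fold change 1.45, limma adjusted p = 0.0383). *Areg* was at 0.411, 0.117 and 0.261 FPKM against 4.25, 3.78 and 1.64 FPKM (log2 fold change -1.69, limma adjusted p = 0.0177). *Ereg* was at 0.276, 0.618 and 0.425 FPKM against 3.58, 4.40 and 1.28 FPKM (log2 fold change -1.42, limma adjusted p = 0.0396). The groups did not overlap in these 4 genes, nor in *Il6ra* and *Csf1r*, which were lower in every knockout library without passing the test, beside 34.1% of all tested genes. *Areg*, *Ereg* and *Il6ra* passed the filter through the controls alone. A gene this low in the knockout libraries could enter the test only by being higher in the controls. The log2 fold changes of *Areg* and *Ereg* depend on the pseudocount and were -3.17 and -2.44 with a pseudocount of 0.1. Without a filter *Areg* passed (limma adjusted p = 0.0383), and *Ereg* and *Hbegf* did not (limma adjusted p = 0.0742 and 0.075). *Ereg* was also lost after rescaling by the median of ratios (limma adjusted p = 0.0546), and *Hbegf* with voom on the recovered reads (limma adjusted p = 0.053). *Tnf* itself was at 5695, 4872 and 4204 FPKM against 3615, 3220 and 4491 FPKM, with control library 3 inside the range of the knockout libraries (log2 fold change 0.39, interval from -0.04 to 0.81, limma adjusted p = 0.212).

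The other proteases and inhibitors of these families were mostly below the filter. Of 17 further metalloproteinase genes 3 were tested, of 9 further ADAM genes 3, of 11 ADAMTS genes 2 and of 5 further inhibitor genes 1, and 0 of these 9 passed the threshold in limma (0 at an unadjusted p below 0.05), beside 7.31% and 27.6% of all tested genes. Without control library 3, *Mmp2* and *Mmp25* passed, beside 14.2% of all tested genes in that fit. Their log2 fold changes in the reported fit were -0.73 and 0.76. *Adam9* and *Adam10*, genes of widely expressed sheddases, were at 51.8 to 66.3 against 49.4 to 65.3 FPKM and at 20.9 to 28.2 against 27.8 to 37.8 FPKM, with log2 fold changes of -0.04 and -0.38 (limma adjusted p = 0.881 and 0.195). *Timp3*, the inhibitor that also blocks ADAM17, was at 0.569, 1.87 and 1.31 FPKM against 0.0704, 0.488 and 0.998 FPKM (log2 fold change 0.57, limma adjusted p = 0.247). *Reck*, a membrane-anchored inhibitor, stayed below the filter at 0.0313 to 0.110 FPKM. *Mmp27* had the highest mean of the further metalloproteinase genes (log2 fold change 0.13, limma adjusted p = 0.731), and *Adamts4* the highest of the ADAMTS genes, at 1.31 to 1.94 against 0.412 to 1.20 FPKM (log2 fold change 0.43, limma adjusted p = 0.213). Both *Timp3* and *Adamts4* passed the filter through the knockout libraries alone.

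Among genes that activate metalloproteinases, that encode matrix or that bind and clear the enzymes, 17 were tested, of which 3 rose and 1 fell, beside 2.57% and 4.74% of all tested genes. In the blocked fit 5 were higher and 0 lower, beside 9.47% of all tested genes in either direction. The collagen genes *Col1a1* and *Col1a2* were gained, both of which passed the filter through the knockout libraries alone. *Serpinb2*, the gene of a plasminogen activator inhibitor, was at 178.7, 122.1 and 339.3 FPKM in the knockout group against 1396, 1349 and 434.5 FPKM in the controls (log2 fold change -2.26, SE 0.53, limma adjusted p = 0.0486), and did not pass in the blocked fit (limma adjusted p = 0.0661). *Plau*, the gene of urokinase, which starts the plasmin cascade that activates metalloproteinases, was at 35.1, 40.4 and 21.4 FPKM against 7.72, 16.0 and 27.2 FPKM (95% confidence interval of the log2 fold change from -0.00295 to 2.01, limma adjusted p = 0.182). *Spp1*, the gene of osteopontin, a matrix protein that metalloproteinases cut, was at 1476, 2310 and 1527 FPKM against 132, 180.4 and 312 FPKM (log2 fold change 3.14, limma adjusted p = 0.00651). *Sdc1*, the gene of the shed proteoglycan syndecan-1, was at 20.7, 27.7 and 26.0 FPKM against 12.2, 11.6 and 12.6 FPKM (log2 fold change 0.97, limma adjusted p = 0.0151). *Mrc1*, the gene of the mannose receptor, which takes up collagen fragments, was at 69.4, 66.8 and 63.4 FPKM against 46.2, 45.1 and 41.9 FPKM (log2 fold change 0.57, limma adjusted p = 0.0326). *Cd44*, whose protein docks MMP9 at the cell surface, had the highest mean of its list (log2 fold change 0.25, limma adjusted p = 0.255).
Of these related lists 44 genes were tested and 8 passed, 5 higher and 3 lower, beside 7.31% of all tested genes, with a median log2 fold change of 0.22 over the 44. Many of the 8 calls were lost when single libraries were left out. Without control library 2 none of the 44 passed in limma, without knockout library 1 *Spp1* alone did, and without knockout library 2 *Trem2* and *Spp1* did, while without control library 3 the number was 16. Over all 9030 genes 8, 30, 63 and 1278 passed in these 4 fits.

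**Figure D4:**
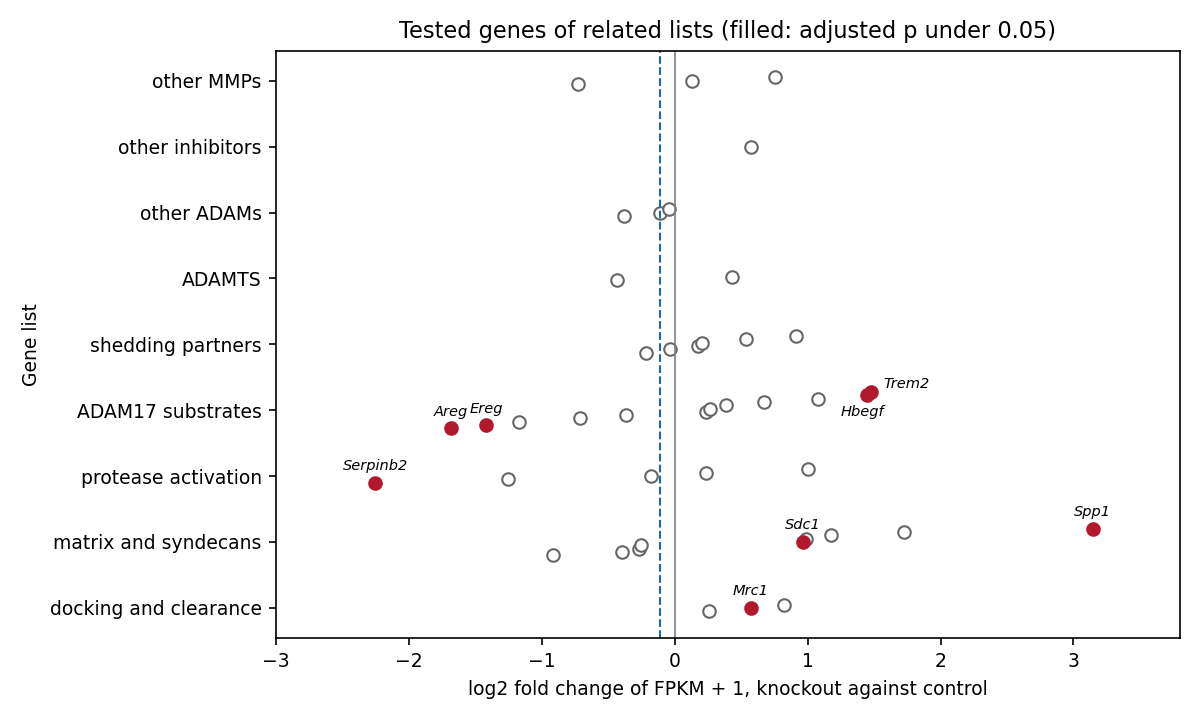
Log2 fold change of FPKM + 1 in the knockout against the control libraries for the 44 tested genes of the related lists, 1 point per gene and 1 line per list, filled and named where the adjusted p from limma was below 0.05 (5 genes higher, 3 lower). The dashed line is the median of all tested genes, -0.11.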

How the data were processed

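PEM libraries were grouped by title, 3 knockout and 3 control. The authors deposited FPKM per gene and library without pooling, and the submitters' processing notes name the build mm9, while the aligner, the counter and strandedness are not given in the sources used here. The deposited group means of normalized counts, a signal made by the authors with DESeq2, served only to recover whole reads, and 100% of values came out whole within 0.01 reads. Columns of the comparison the authors ran themselves (fold change, also as log2, with p-value and q-value) were deposited too and were not used.

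FPKM were tested as log2(FPKM + 1) with limma 3.58.1 in R 4.3.3 (lmFit, eBayes with trend) over genes with a mean of at least 1 FPKM in either group, with Benjamini-Hochberg adjustment and a threshold of 0.05. The pseudocount makes fold changes of low genes too small. Alternatives were no filter, a filter of 5 FPKM, a pseudocount of 0.1, the replicate number as a block, rescaling by the median of ratios, voom on the recovered reads, and each library left out. Deviations from the group means correlated across genes with r = 0.11, 0.11 and 0.30 between libraries of the same number. Between the others r was -0.33 to 0.29. No source says what a number shares, so the reported fit has no block. Whether the numbers pair the libraries was not settled.

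All 10 genes were named whatever their values, with every called gene and the most abundant gene of each related list, a few shedding and activation genes, and the 3 tested genes nearest in profile to a called gene. The genes and lists were chosen with earlier results of these data known. Promoters and the order of genes came from RefSeq (GRCm38.p6) and overlapping exons from GENCODE M21, both another build than that of the values, and were used by gene name alone. Depth limits the low genes most, and reads are given where they matter.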

Additional observations from a re-analysis of the deposited data

How the results depend on the processing

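Over 12 alternatives *Mmp12*, *Mmp14*, *Mmp9* and *Timp2* kept their direction and did not pass, *Mmp19* stayed higher and passed in 7 (adjusted p from 0.0208 to 0.164, limma), and *Adam8* stayed higher and passed in 3 (0.0219 to 0.274). The log2 fold change of *Mmp13* was 0.13 after rescaling. With any 1 library left out, the log2 fold changes ran from -1.54 to 0.39 for *Mmp8*, -0.24 to 0.16 for *Mmp13*, -0.19 to 0.43 for *Timp1* and -0.17 to 0.23 for *Adam17*, and these 4 signs carry no direction. Of the 10 genes 0 passed without a filter (2 at an unadjusted p below 0.05, and 446 of 15415 genes in all passed) and 2 passed with the replicate block or after rescaling, and 0 to 2 passed with a library left out. Of the related lists 5 genes passed without a filter, 5 with a filter of 5 FPKM (28 tested), and 0 to 16 with a library left out. Over all genes 660 passed, 436 with a filter of 5 FPKM (fewer genes tested), 855 with the replicate block, and 8 (without control library 2) to 1278 (without control library 3) with a library left out, where knockout libraries 1 and 2 left 30 and 63. The causes of these changes were not tested. The block changed the calls of *Adam8*, *Furin*, *Col1a1*, *Col1a2* (all gained, the collagen genes above the filter through the knockout libraries alone) and *Serpinb2* (lost) and of no other gene of the 10 or the related lists. The quasi-likelihood test of edgeR, planned for deposited counts, was not run, since FPKM were deposited.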

Other observations

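*Mmp8* was followed up after its values were seen, since no other of the 10 genes varied as much within the groups. The tested genes nearest to its profile over the 6 libraries were *Lonrf1*, *Osbpl3* and *Vegfa*, with root-mean-square differences of 0.59, 0.59 and 0.60 on the log2 scale against a size of 1.31 for the *Mmp8* profile itself, so none lay as near as the genes next to *Mmp19*.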
